A study of Homo sapiens with 3 samples.

Results

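Intraflagellar transport complex A (IFT-A) was described through the transcripts of its 6 subunit genes, WDR19, IFT122, IFT140, WDR35, TTC21B and IFT43. These genes were chosen by symbol, and all 6 were present among the 58735 genes of the count table. The study concerns the RNA-binding protein Unkempt in centriole overduplication. Polyadenylated RNA was sequenced from RPE-1, an established human cell line that derives from retinal pigment epithelium and was immortalised with telomerase. The cells carry GFP-tagged CETN2, which marks centrioles, and a PLK4 gene under doxycycline control through rtTA. The 3 libraries form 1 group, given scramble siRNA with Lipofectamine RNAiMAX and no PLK4 induction, so no comparison between conditions was possible. The labels do not say whether the libraries came from separate cultures or whether the line is a single clone, so every p-value between libraries refers to the spread among these 3 libraries alone, and that spread may be technical.

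Intraflagellar transport moves protein trains along the axoneme of the cilium. Kinesin-2 drives the trains, together with IFT-B, from the base to the tip, and dynein-2 returns them. IFT-A is required for the return journey and, with the tubby-like adaptor TULP3, for the entry of membrane proteins such as G protein-coupled receptors. Its core consists of WDR19 (IFT144), IFT140 and IFT122, and its peripheral part of WDR35 (IFT121), TTC21B (IFT139) and IFT43. The 4 large subunits WDR19, IFT140, IFT122 and WDR35 combine WD40 propellers with a helical solenoid, as do the coatomer subunits COPA and COPB2 of Golgi vesicles. TTC21B is built of tetratricopeptide repeats, and IFT43 is a small protein. RPE-1 cells are widely used for work on primary cilia, but ciliation was not measured in these data.

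The RefSeq start regions of 5 of the 6 genes matched by symbol, and WDR35 had no match. They are shown because the X-box, the motif bound by RFX transcription factors, is known from promoters of ciliary genes. The following stretches run from 110 bases before to 25 after the annotated start on the plus strand of GRCh38.p14, at chr3:129440114-129440248 for IFT122, chr4:39182419-39182553 for WDR19 and chr14:75985653-75985787 for IFT43. Capitals mark an X-box match in IFT122, a relaxed X-box match in WDR19 and a cyclic AMP response element match in IFT43.
IFT122: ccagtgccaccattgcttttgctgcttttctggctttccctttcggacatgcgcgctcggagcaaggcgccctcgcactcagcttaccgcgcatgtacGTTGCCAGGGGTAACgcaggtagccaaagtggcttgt
WDR19: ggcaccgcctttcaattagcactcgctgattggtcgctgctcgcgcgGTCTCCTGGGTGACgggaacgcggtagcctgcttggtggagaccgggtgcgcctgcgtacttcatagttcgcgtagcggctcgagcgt
IFT43: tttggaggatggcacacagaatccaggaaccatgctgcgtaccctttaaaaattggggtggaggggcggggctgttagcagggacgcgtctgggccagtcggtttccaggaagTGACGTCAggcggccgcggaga

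The X-box was searched on both strands as GTTNCC followed by 0 to 3 bases and GGNAAC, in windows of 300 bases from 250 before to 50 after each start. IFT122 was the only one of the 5 matched members with this motif, from position -12 to position 3 (there is no position 0), and 0.74% of all 35116 windows held it. The relaxed form, GTNNCC followed by 0 to 3 bases and GGNNAC, contains the first form and was also present in WDR19, from -63 to -50, against 3.87% of all windows. TGACGTCA was present only in IFT43, from 4 to 11 after the start, against 1.85% of all windows. CCAAT, searched on both strands, was present in 5 of 5 windows, with 5 matches in IFT140, against 34.6% of all windows. GGGCGG was also present in 5 of 5, against 45% of all windows, and TATAAA in none, against 11.5%. The windows of the whole set were not matched to those of the members by kind of gene or base composition. The gene spans used for lengths begin upstream of these RefSeq starts, at 129440036 for IFT122, 39182404 for WDR19 and 75902136 for IFT43. The marked matches of these genes therefore lie inside those spans. A match describes the letters in the window and not a bound site.

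Library 1 stood apart from the other libraries in the table as a whole, and results that rest on it are given with and without it. All 6 IFT-A genes were detected at low to moderate levels, and each stayed within 1.18-fold between the lowest and the highest library. Detection meant a CPM (a gene's count scaled to the size of its library) of at least 1 in each library, a level reached by 57.7% of protein-coding genes. CPM refers to library totals of 46625774 to 60040029 counts, scaled by TMM factors from edgeR. RPKM is CPM per kb of a gene's exons, merged over all of its annotated transcripts (the union of exons). On that scale the mean levels ran from 2.59 to 3.79 RPKM, between the 27.0 and the 36.2 percentile of the 11508 detected protein-coding genes, whose median was 6.09 RPKM. The percentiles depended on the scale, and in CPM they ran from 23.3 (IFT43) to 50.5 (WDR19).

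WDR19, the core subunit also called IFT144, had the highest level of the 6 in CPM and in RPKM over the union of exons. It lies on hg38 chromosome 4 from 39182404 to 39285810, plus strand (ENSG00000157796). Its counts of 1595, 2151 and 1526 in libraries 1, 2 and 3 gave 32.9, 35.4 and 32.6 CPM, or 3.79 ± 0.174 RPKM (SD, n = 3). Library 2 was the highest, and the exact Poisson interval of library 2 (33.9 to 36.9 CPM, 95% confidence) overlapped those of library 1 (31.3 to 34.5) and library 3 (31.0 to 34.3).

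IFT122, another core subunit, had the next highest level on both of these scales. It lies on chromosome 3 from 129440036 to 129520507, plus strand (ENSG00000163913). Its counts of 1401, 1797 and 1480 gave 28.9, 29.6 and 31.6 CPM, or 3.12 ± 0.149 RPKM (SD, n = 3). Library 3 was the highest, and the intervals of all 3 libraries overlapped.

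IFT140, the third core subunit, had the lowest level per union of exons. It lies on chromosome 16 from 1510427 to 1612110, minus strand (ENSG00000187535). Its counts of 1109, 1227 and 952 gave 22.8, 20.2 and 20.3 CPM, or 2.59 ± 0.182 RPKM (SD, n = 3). Library 1 stood above the other two, and its interval (21.5 to 24.2 CPM) did not overlap that of library 2 (19.1 to 21.4). Other annotated genes overlap 1.47% of its exons on the same strand and 4.80% on the opposite strand.

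WDR35, the peripheral subunit IFT121, showed the widest spread of the 6. It lies on chromosome 2 from 19910260 to 19990131, minus strand (ENSG00000118965). Its counts of 1105, 1172 and 996 gave 22.8, 19.3 and 21.3 CPM, or 2.69 ± 0.222 RPKM (SD, n = 3). The interval of library 1 (21.4 to 24.1 CPM) lay above that of library 2 (18.2 to 20.4), with library 3 between them.

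TTC21B, the peripheral repeat protein IFT139, was the steadiest member. It lies on chromosome 2 from 165857475 to 165953843, minus strand (ENSG00000123607). Its counts of 967, 1233 and 953 gave 19.9, 20.3 and 20.4 CPM, or 2.68 ± 0.0318 RPKM (SD, n = 3). The 3 libraries differed by 1.02-fold at most. The antisense gene TTC21B-AS1 covers 6.95% of its exon length, and since the strand setting of the counting is not given in the sources used here, reads of the pair may not be separated there.

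IFT43, the smallest subunit, had the fewest reads. It lies on chromosome 14 from 75902136 to 76084585, plus strand (ENSG00000119650). Its counts of 566, 722 and 509 gave 11.7, 11.9 and 10.9 CPM, or 2.75 ± 0.126 RPKM (SD, n = 3). The intervals of the 3 libraries overlapped. The annotated gene begins upstream of the RefSeq start and shares 85 bases of exon with its neighbour TTLL5 on the same strand.

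**Figure D1:**
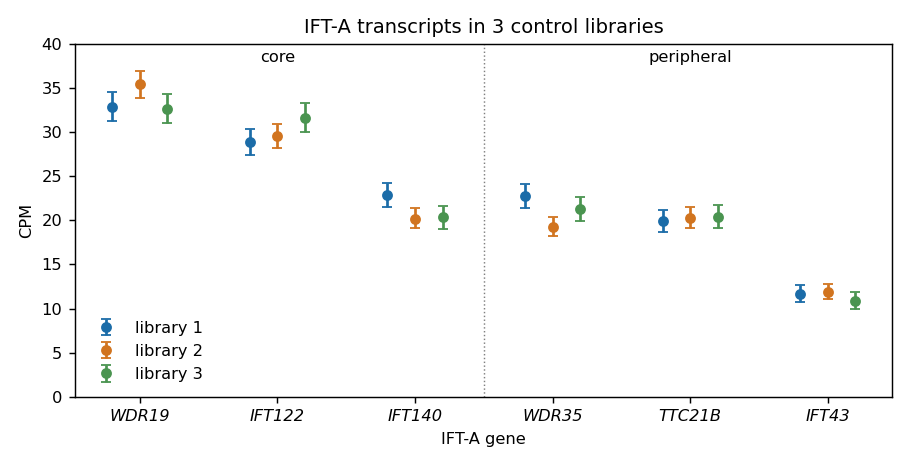
CPM (vertical axis) of the 6 IFT-A genes (horizontal axis) in libraries 1, 2 and 3, with exact Poisson intervals at 95% confidence that cover counting error only. WDR19 and IFT122 lie at 28.9 CPM or more in every library and IFT43 at 11.9 CPM or less.

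The spread between libraries passed a test against counting noise in 3 of the 6 genes, WDR35, IFT140 and WDR19. The test was a chi-square test of the 3 counts over the 16293 genes that averaged 10 counts or more, adjusted by Benjamini-Hochberg at 0.05, and it called 68.6% of those genes. Among the 3272 genes whose mean count lay in the members' range of 599 to 1757 counts it called 75.2%. The adjusted p was 0.000758 for WDR35, 0.00846 for IFT140, 0.0303 for WDR19, 0.0531 for IFT122, 0.340 for IFT43 and 0.886 for TTC21B.

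Over all 3 libraries the sizes of these differences were small beside those of other genes. The ratio of highest to lowest CPM was 1.18 for WDR35, 1.13 for IFT140, 1.10 for IFT122, 1.09 for IFT43, 1.09 for WDR19 and 1.02 for TTC21B. All 6 lay below the median ratio of 1.19 among the 3272 genes of like count, which includes library 1. Without library 1 the ratios of the members were 1.10 for WDR35, 1.09 for IFT43 and 1.09 for WDR19. They were 1.07 for IFT122, 1.008 for IFT140 and 1.004 for TTC21B. The median of like-count genes was not computed without library 1, so the comparison holds only with it. With a preset coefficient of variation of 0.05 between libraries added to counting noise, 0 of 6 members were called. The shares called were 32.5% of all tested genes and 33.3% of those of like count. The smallest adjusted p was then 0.237, for WDR35. The coefficient of variation that edgeR estimated over the genes in common was 0.135 with all libraries and 0.060 without library 1. Both exceed the preset value.

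The calls on IFT-A genes depended on libraries 1 and 2. Of the 11182 genes called, library 1 was farthest from the others in 7427. Without library 1, 28.1% of tested genes and 0 of 6 IFT-A genes were called, with adjusted p of 0.0504 for WDR19, 0.0715 for WDR35 and 0.921 for IFT140. Without library 2 the called members were IFT140 (adjusted p = 0.0175) and IFT122 (0.0266), while WDR19 (0.873) and WDR35 (0.182) were not called. Without library 3 the called members were WDR35 (0.000205), IFT140 (0.00599) and WDR19 (0.0405). The share of all tested genes called was 56.8% without library 2 and 60.6% without library 3.

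The members did not move in 1 direction. WDR35 and IFT140 deviated upward in library 1, by 0.11 each on the log2(CPM + 0.5) scale, while IFT122 deviated there by -0.05, WDR19 by -0.03, TTC21B by -0.02 and IFT43 by 0.02. The mean deviation of the 6 genes was 0.02 in library 1 (0.0018 with unscaled library totals), -0.01 in library 2 (0.0041 with unscaled library totals) and -0.01 in library 3 (0.00090 without library 1). The corresponding medians of the 3272 genes of like count were -0.03, 0.02 and 0.02. The summed RPKM of the 6 genes was close in the 3 libraries, with 17.8, 17.5 and 17.5 RPKM. The 3 core genes summed to 9.50, 9.53 and 9.45 RPKM and the 3 peripheral genes to 8.34, 8.003 and 8.03 RPKM.

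**Figure D2:**
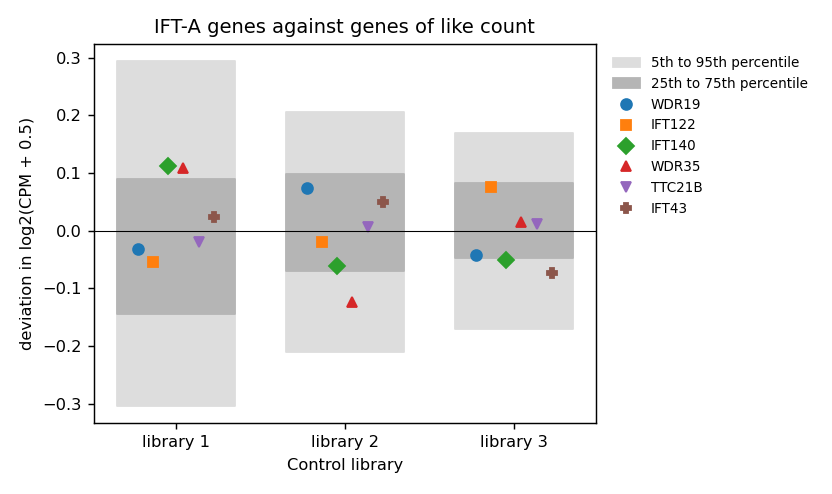
Deviation of each IFT-A gene (symbols) from its own mean over the 3 libraries, in log2(CPM + 0.5), by library. Grey bands give the 25 to 75 and the 5 to 95 percentiles of the 3272 genes of like count. All members lie inside the wider band in each library, and WDR35 reaches the lowest value, -0.12 in library 2.

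Over the union of exons the 6 transcripts were nearly equal, and most neighbours in the order could not be separated. The highest member exceeded the lowest 1.401-fold, 1.62-fold and 1.48-fold in the 3 libraries (mean 1.499 ± 0.112 SD). The order of mean RPKM was WDR19, IFT122, IFT43, WDR35, TTC21B, IFT140. WDR19 exceeded IFT122 by 0.28 ± 0.11 (SD) in log2 RPKM, in 3 of 3 libraries, more than 2 SD of the ratio. IFT122 exceeded IFT43 by 0.18 ± 0.13 in 3 of 3 libraries, within 2 SD. The other neighbours differed by 0.03 ± 0.15 (IFT43 over WDR35, higher in 1 of 3), 0.01 ± 0.13 (WDR35 over TTC21B, 2 of 3) and 0.05 ± 0.12 (TTC21B over IFT140, 2 of 3). The two-sided exact sign-flip test cannot go below p = 0.25 with 3 libraries, and over the 5 neighbours its adjusted p was 0.625 at the lowest.

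The near equality depended on how length was defined, most of all for IFT43. The annotated exons of IFT43 cover 4.172 kb in 12 transcripts, while the transcript with its longest coding sequence has 0.816 kb and encodes 213 amino acids. Divided by the length of that transcript, IFT43 stood at 14.1 ± 0.647 RPKM and became the highest member instead of the third. The same length gave 7.44 ± 0.342 RPKM for WDR19, 7.23 ± 0.346 for IFT122, 4.01 ± 0.282 for IFT140, 3.68 ± 0.0438 for TTC21B and 3.03 ± 0.25 for WDR35 (SD, n = 3). The ratio of highest to lowest member was then 4.66 ± 0.514 in place of 1.499. The percentiles among detected protein-coding genes, with the same kind of length for each, ran from 21.0 (WDR35) to 59.9 (IFT43). The levels of IFT122 and WDR19 also changed, with exons that cover 9.636 kb against 4.151 kb for the coding transcript of IFT122 and 8.873 against 4.520 kb for that of WDR19. WDR35, with 7.836 against 6.960 kb, changed least. WDR19 and IFT122 stayed above IFT140, TTC21B and WDR35 under each length and in CPM, whereas the place of IFT43 cannot be fixed from counts per gene, which do not show which transcripts were present.

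**Figure D3:**
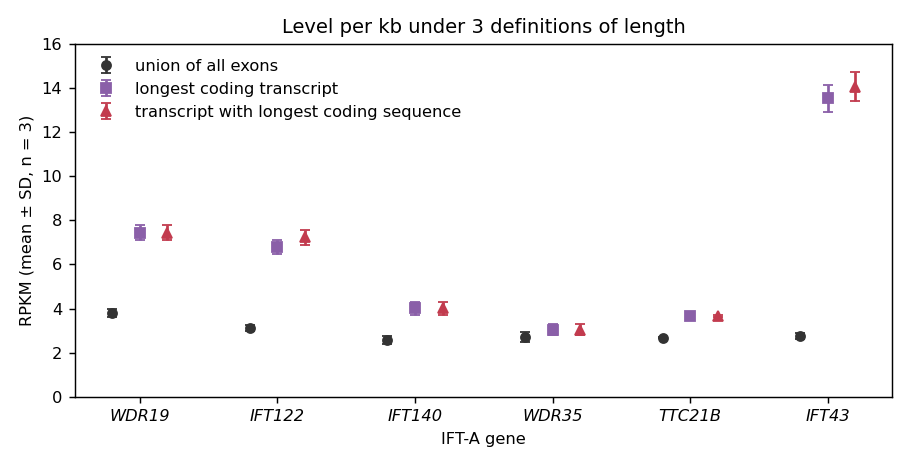
Mean RPKM with SD (vertical axis, n = 3) of the 6 IFT-A genes when CPM is divided by the union of exons (circles), the longest coding transcript (squares) or the transcript with the longest coding sequence (triangles). IFT43 moves from 2.75 to 13.5 and 14.1 RPKM and WDR35 from 2.69 to 3.03 RPKM.

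The adaptor of IFT-A at the ciliary membrane, TULP3, had a higher level than any subunit over the union of exons, and differed between libraries. It stood at 63.5, 38.9 and 41.0 CPM, or 15.0 ± 4.29 RPKM (SD, n = 3), with library 1 above the other two. Its spread passed the chi-square test (adjusted p = 4.05e-86), also with the added coefficient of variation (3.77e-11), but not without library 1 (0.194). TULP4 stood at 2.92 ± 0.300 RPKM, while TUB had 0, 1 and 10 counts and TULP1 and TULP2 had 0 counts. At 0 counts the one-sided limit used here is 3 counts, lower than the upper end of the two-sided intervals above, and amounts to 0.0618, 0.0494 and 0.0641 CPM in the 3 libraries. TTC21A, the paralogue of TTC21B, had 177, 179 and 155 counts or 0.430 ± 0.0456 RPKM. TTC21B exceeded it 6.25-fold per length (log2 ratio 2.64 ± 0.17 SD, higher in 3 of 3 libraries).

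IFT-B, the partner complex of the trains, was detected for 17 of 17 genes, with a median of 3.70 RPKM against 2.72 for IFT-A. The order of these medians turned without length, with 17.9 CPM for IFT-B and 21.1 for IFT-A. IFT57 was the highest at 12.4 ± 0.171 RPKM and TTC30A the lowest at 0.973 ± 0.150 RPKM (SD, n = 3). TTC30A has a near-identical copy in TTC30B (0.975 ± 0.273 RPKM), and reads may be divided between them. The chi-square test called 11 of the 17 genes, or 6 with the added coefficient of variation, and 2, 10 and 11 without library 1, 2 and 3 in turn. The shares of all tested genes to set beside these and the following counts are 68.6%, 32.5% with the added coefficient of variation, and 28.1%, 56.8% and 60.6% without each library. The SD over genes of log2 RPKM was 1.15 in IFT-B and 0.21 in IFT-A. With the length of the transcript with the longest coding sequence it was 1.52 and 0.83, and in CPM 0.90 and 0.54. With that coding-sequence length the detected genes of the membrane cargo list, described below, had a lower SD than IFT-A, 0.78.

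The motors showed wider ranges. Of the dynein-2 list, which includes light chain genes, 10 of 11 genes were detected. The median over all 11 was 11.2 RPKM, the level of the light chain DYNLT3. Genes below it were DYNC2H1, DYNC2LI1 (3.12 ± 0.374 RPKM), WDR60, TCTEX1D2 and DYNLRB2. Those above it were WDR34, DYNLT1, DYNLL1, DYNLL2 and DYNLRB1. DYNC2H1, the motor heavy chain for the return journey, stood at 57.3, 51.9 and 55.3 CPM or 3.65 ± 0.184 RPKM, and exceeded TTC21B 1.36-fold per length in 3 of 3 libraries and 2.71-fold without length. The light chain DYNLL1 was highest with 93.2 ± 7.98 RPKM, and it also serves other complexes. DYNLRB2 was below detection with 11, 9 and 6 counts. TCTEX1D2 was the lowest detected gene with 1.44 ± 0.0938 RPKM, and 31.1% of its exons overlap a gene on the same strand. The intermediate chains WDR34 (53.6 ± 8.81 RPKM) and WDR60 (3.21 ± 0.663 RPKM), named after their values were seen, differed 16.8-fold per length and 6.55-fold without length. Of the kinesin-2 genes 5 of 5 were detected, from KIF3C (17.4 ± 1.92 RPKM) down to KIF17 (1.03 ± 0.294 RPKM), the motor of a homodimeric kinesin-2. The chi-square test called 9 of the 10 dynein-2 genes tested, or 3 with the added coefficient of variation, and 5, 6 and 8 without library 1, 2 and 3. It called 5 of the 5 kinesin-2 genes, or 4 with the added coefficient of variation, and 2, 5 and 5 without each library.

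Genes of ciliary tip kinases, of the CPLANE proteins that help to assemble IFT-A at the ciliary base, and of the BBSome, which carries membrane cargo on the trains, were also mostly detected. MOK was the highest of the kinases at 4.77 ± 0.205 RPKM, CDK20 the lowest detected at 1.62 ± 0.209, and MAK was below detection with 0, 18 and 17 counts. The CPLANE genes, 5 of 5 detected, had a median of 0.767 RPKM and ranged from CPLANE1 (3.14 ± 0.446) down to WDPCP (0.340 ± 0.0434). Of the 9 genes of the BBSome list, which holds ARL6 beside the subunits, 8 were detected. The median over all 9 was 3.40 RPKM, and detected levels ran from BBS7 (6.33 ± 0.375) down to BBS5 (0.596 ± 0.118). BBS1 was below detection with 65, 66 and 40 counts. The part of the exons that overlaps a gene on the same strand was 21.9% for BBS5 and 53.9% for BBS1. The chi-square test called 3 of the 4 kinase genes, 3 of the 5 CPLANE genes and 6 of the 9 BBSome genes, or 1, 2 and 0 with the added coefficient of variation. The counts for the kinases, CPLANE and the BBSome were 0, 0 and 3 without library 1, then 2, 1 and 2 without library 2, and 2, 4 and 3 without library 3.

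The membrane cargo list, which holds proteins whose entry into cilia is linked to TULP3 and IFT-A, was detected for 7 of 9 genes, and the median over all 9 was 5.39 RPKM. PKD2, a ciliary cation channel, was the highest at 19.0 ± 0.952 RPKM. SMO, the Hedgehog signal transducer, was the lowest detected at 8.90, 14.4 and 14.8 CPM or 2.95 ± 0.766 RPKM. SMO was lowest in library 1 (adjusted p = 3.03e-18 in the chi-square test, 0.737 without library 1). The receptors SSTR3 and MCHR1 had 0 counts in each library. All 7 detected genes were called, against 68.6% of all tested genes, or 3 with the added coefficient of variation and 3, 6 and 6 without library 1, 2 and 3.

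The coatomer genes, of which COPA and COPB2 share the WD40 and solenoid build, had a higher median than the IFT-A genes. Their median over 9 of 9 detected genes was 41.3 RPKM, and levels ran from ARCN1 (62.0 ± 0.880) down to COPG2 (5.92 ± 0.645). COPA exceeded IFT140 17.6-fold per length and 16.6-fold without length, each in 3 of 3 libraries. The chi-square test called 8 of the 9 genes, or 4 with the added coefficient of variation and 4, 7 and 7 without library 1, 2 and 3.

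Of the RFX and FOXJ1 factors 5 of 8 were detected. RFX5 was highest at 19.5 ± 0.932 RPKM, and RFX3, a regulator of ciliary genes, was the lowest detected at 6.37, 6.35 and 6.41 CPM or 0.571 ± 0.00276 RPKM. RFX4 and RFX6 had 0 counts, and FOXJ1, the regulator of motile cilia, had 5, 2 and 0 counts. The chi-square test called 4 of the 5 detected genes, or 1 with the added coefficient of variation and 1, 3 and 4 without library 1, 2 and 3.

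**Figure D4:**
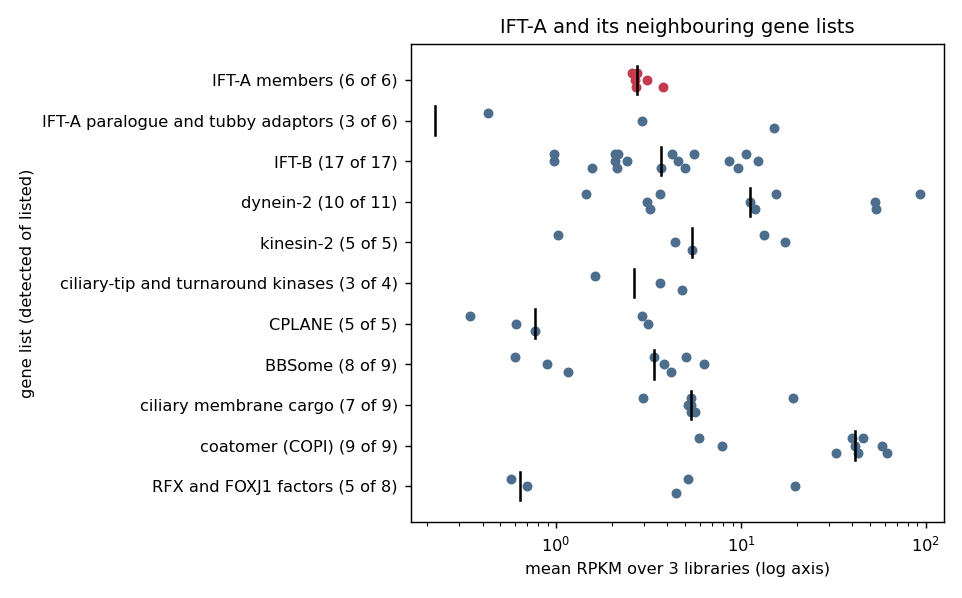
Mean RPKM over the 3 libraries (horizontal log axis) of the detected genes in the IFT-A list and 10 neighbouring lists, with the number detected of those listed. Each point is a gene and each bar the median over all listed genes. IFT-A spans 2.59 to 3.79 RPKM around a median of 2.72, and the coatomer median lies at 41.3 RPKM.

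Of the 73 genes in the neighbouring lists that averaged 50 counts or more, those whose 3 deviations lay nearest to the mean deviation of the 6 IFT-A genes were ARCN1, IFT88 and RFX3. Their root mean square differences from it over 3 libraries were 0.00076, 0.014 and 0.019 in log2. Of the members themselves TTC21B lay nearest (0.030) and WDR35 farthest (0.083). Each of the 3 genes varied little, with a highest-to-lowest CPM ratio of 1.03 for ARCN1, 1.03 for IFT88 and 1.009 for RFX3. The mean deviation of the members was itself small in each library, so nearness to it picks steady genes and not a shared pattern. RFX3 deviated in the opposite direction to that mean in libraries 1 and 3, and IFT88 in library 2. ARCN1 deviated in its direction in each library. The ranking was not repeated without library 1.

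For the labelled cell type, 6 of 9 pigment epithelium markers were detected, against 57.7% of all protein-coding genes. That count alone does not establish the cell type. OTX2 stood at 5.47 ± 0.239 RPKM, MITF at 3.05 ± 0.253, KRT8 at 92.2 ± 13.2 and KRT18 at 76.4 ± 12.6. The other detected markers were lower. BEST1 stood at 1.03 ± 0.0905 RPKM, and PMEL at 0.401, 0.468 and 0.630 RPKM in libraries 1, 2 and 3. RPE65 had 8, 6 and 0 counts, RLBP1 had 1, 7 and 3 counts and TYR had 0. Of 9 markers of other cells 2 were detected, SNAP25 at 2.09 ± 0.130 and PTPRC at 0.225 ± 0.0841 RPKM. CD3E and HBB had 0 counts in each library. The 9 markers summed to 10.96, 8.72 and 9.02 CPM in libraries 1, 2 and 3, and their part in the differences of library 1 was not tested.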

How the data were processed

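The authors deposited whole-number read counts per gene, not normalised. The submitters' processing notes name featureCounts 1.6.2, STAR 2.5.2a and cutadapt 1.16 with hg38, without roles. Annotation, strand setting and handling of ambiguous reads: not given in the sources used here. The table held 6 further columns that matched no sample label, and these were not used. All 58735 identifiers matched GENCODE release 29, which gave exon lengths and positions. RSG1 was matched as CPLANE2.

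Library totals were 49279692, 60040029 and 46625774 counts. TMM factors came from edgeR 4.0.16 in R 4.3.3. The chi-square test (2 degrees of freedom) was fitted over the whole table, and checked on simulated counts. The simulated counts held counting noise without further spread between libraries, so that check cannot show how the test behaves on such spread. Intervals and floors reflect counting error alone, as reads are no independent molecules. Logarithms used a pseudocount of 0.5. The members and lists were chosen with earlier results of these data known. Named genes were the 6 members, the highest and lowest detected gene of each list and undetected genes of lists of up to 9. TULP3, TTC21A, DYNC2H1, RFX3 and FOXJ1 were also named, as were the 3 genes whose deviations lay nearest to the mean of the members. TULP4, TTC30B, the dynein-2 genes other than DYNC2H1, DYNLL1 and TCTEX1D2, and the COPA ratio were chosen after their values were seen. So were the limit of 2 SD, the motifs, the stretches printed, the exon overlaps and the range of like count. Alternatives were DESeq2 1.42.0 size factors, unscaled totals, other lengths, filters and pseudocounts, and leaving out each library.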

Additional observations from a re-analysis of the deposited data

How the results depend on the processing

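The order and the near equality of the IFT-A genes depended on length, and the calls on their spread on libraries 1 and 2 and on the noise model. Per length of the longest coding transcript (per length of the transcript with the longest coding sequence, without length in CPM) the levels were 13.5 (14.1, 11.5) for IFT43, 6.80 (7.23, 30.03) for IFT122, 4.01 (4.01, 21.1) for IFT140, 3.68 (3.68, 20.2) for TTC21B, 7.44 (7.44, 33.6) for WDR19 and 3.03 (3.03, 21.1) for WDR35. In the same sequence, the log2 ratios were 0.13 (0.041, 0.16) for WDR19 over IFT122, -0.99 (-0.96, 1.39) for IFT122 over IFT43 and 2.16 (2.22, -0.88) for IFT43 over WDR35. They were -0.28 (-0.28, unchanged in CPM within 1 SD) for WDR35 over TTC21B and -0.12 (-0.12, -0.063) for TTC21B over IFT140. The ratio of highest to lowest member was 4.48 (4.66, 2.93). The list medians were 5.41 (5.62, 21.1) for IFT-A, 0.398 (0.398, 1.69) for the paralogue and tubby adaptors, 8.33 (8.33, 17.9) for IFT-B, 6.59 (13.3, 30.2) for kinesin-2, 3.85 (3.97, 16.04) for the kinases, 1.06 (1.18, 4.51) for CPLANE, 4.99 (6.38, 15.9) for the BBSome, 73.3 (75.2, 204.8) for the coatomer and 1.14 (1.14, 6.37) for the RFX and FOXJ1 factors. The cargo median moved to 7.12 with the longest coding sequence and 31.3 in CPM, and the dynein-2 median to 45.8 in CPM. The length of the transcript with the longest coding sequence was added after seeing the data. These changes follow from the divisors themselves.

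With the coefficient of variation of 0.05 added, 5302 genes and 0 members were called. Leaving out 1 library at a time gave 4581 to 9992 called genes and 0 to 3 called members, the lowest in each case without library 1. The same omissions gave 0.23 to 0.34 for WDR19 over IFT122, 0.10 to 0.22 for IFT122 over IFT43, -0.057 to 0.078 for IFT43 over WDR35, -0.061 to 0.072 for WDR35 over TTC21B and 0.018 to 0.12 for TTC21B over IFT140. They gave kinesin-2 medians of 5.28 to 5.65 RPKM. The mean deviation of the members ran from -0.018 to -0.00090 in library 2 and from -0.017 to 0.00090 in library 3, and unscaled totals turned that of library 2 to 0.0041. With unscaled totals IFT122 was also called, which made 4 members, and the mean deviation in library 1 was 0.0018. Without library 2 a different set of 2 members was called. The BBSome list had 9 detected genes with a mean CPM of at least 0.5 and without library 3. Apart from single-gene calls, 197 recomputed values kept their direction and moved by less than 1 SD, or by less than 1.5 times for counts of genes, while 63 moved further and 12 reversed, and the cause of changes other than those of length was not tested. No paired analysis was possible because the libraries form 1 group. Counts of 509 to 2151 per member and library limit the precision, most for IFT43.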
